A study of Homo sapiens with 16 samples.

Results

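The genes described here are those that copy DNA and repair it at the replication fork in 2 human colorectal cancer cell lines, HT55 and SW948. They were taken from a list of 47 genes, matched by symbol to the Ensembl identifiers of the count files, and kept when all 4 libraries of at least 1 group held 10 or more counts. A total of 46 genes were matched and all 46 passed, out of 54127 identifiers in the files, and UHRF1 was not matched to an identifier and is not analysed here. The 16 libraries form 4 groups of 4. HT55 and SW948 were each grown in adherent culture and given the antifungal itraconazole at 5 µM or its solvent DMSO, and RNA was taken on day 6. Each line is a single established culture, so a difference between the 2 lines describes these 2 cultures and not tumours in general. The methods of the study call the replicates biological, no label ties a library to a culture or day, and the p-values measure the spread between these libraries.

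A DNA replication fork is opened by the CMG helicase, which joins the MCM ring to CDC45 and the GINS proteins. DNA polymerase alpha and primase lay down primers, the RFC loader places the PCNA clamp, and DNA polymerases delta and epsilon extend the strands from it. RPA covers the single strands, FEN1 and LIG1 join the lagging strand, ribonucleotide reductase and thymidylate synthase supply nucleotides, and the BRCA and Fanconi anaemia proteins protect and repair forks that stall. Many of these genes are transcribed chiefly in late G1 and S phase under E2F transcription factors. RNA from a whole culture cannot tell fewer cells in S phase from less RNA per cell, and this holds for every level below.

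Levels are given as CPM, the counts per 1000000 gene counts after TMM scaling of the 16 libraries together. Fold changes are itraconazole over DMSO on the log2 scale with their SE, from edgeR's quasi-likelihood test in each line by itself, and a gene was said to have risen or fallen when its Benjamini-Hochberg adjusted p over all genes tested was under 0.05. Each library held between 8269406 and 11110814 gene counts. All 13 markers of colorectal epithelium that were examined, among them EPCAM, CDH1 and CDX2, were present in every group, and their summed level was higher with the drug in both lines, at 12319 to 12530 CPM against 14512 to 17906 CPM in HT55 and 7913 to 8235 CPM against 10626 to 13407 CPM in SW948. One by one they were split, with 7 rising and 1 falling in HT55 and 7 rising and 6 falling in SW948, where GPA33 was at -1.31, CDX2 at -0.88, CDX1 at -0.73, CDH17 at -0.66, VIL1 at -0.63 and CDH1 at -0.23. The summed level of 10 markers of blood, stromal, endothelial, muscle and glial cells was 2.12 to 3.67 CPM with DMSO and 3.60 to 4.95 CPM with itraconazole in HT55, and 3.23 to 5.29 CPM and 11.4 to 14.0 CPM in SW948. The T cell marker CD3E had no count in any library and the leukocyte marker PTPRC had 1 count in all, while COL1A1, a collagen and the 1 marker of this list with enough counts to be tested in SW948, rose there by 1.65 on the log2 scale. The part of these markers in the results was not tested. The share of gene counts from mitochondrial genes went from 2.15% ± 0.0331 (SD, n = 4) to 2.83% ± 0.176 (SD, n = 4) with the drug in HT55 and from 1.22% ± 0.194 (SD, n = 4) to 2.47% ± 0.393 (SD, n = 4) in SW948, and its part in the results was not tested. Replicate 3 of HT55 with itraconazole stood apart. On the first principal component of the HT55 libraries it lay at 15.9, against 36.0 to 51.0 for the other treated libraries and -37.6 to -35.2 for DMSO. HT55 fold changes of the replication genes and counts over the other replication and repair lists are therefore given with and without it, as treated replicate 3.

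Promoter sequences are shown first, because the E2F site is the feature these genes are best known to share. RefSeq promoters on GRCh38.p14, each reaching from 250 bases before the start of a transcript to 50 bases after it, were found for 40 of the 46 genes. No entry was held for POLD3, GINS4, RPA2, RPA3, FAM111B or FANCI. The E2F site was searched for as TTTCCCGC, TTTCGCGC, TTTGCCGC or TTTGGCGC on both strands. At least 1 match was found in 18 of the 40 genes (45.0%), against 3.99% of all 27305 genes in the same table. The CCAAT box, searched as CCAAT, was found in 52.5% of the 40 genes and 39.7% of all genes. The CHR element of late cell cycle genes, searched as TTTGAA or TTCGAA, was found in 10% of the 40 and 19.5% of all. None of the E2F matches overlapped a CCAAT or CHR match. The 150 bases before the start are printed below for 5 genes that fell in both lines and have an E2F match there, and then for the 3 genes that rose in SW948, none of which has one. The 5 are examples and not the full set, and no gene that fell in both lines without a match is printed. Capitals mark the E2F matches, and each sequence is written 5′ to 3′ along the strand of its gene.
GINS2 (chr16:85688955-85689104, minus strand): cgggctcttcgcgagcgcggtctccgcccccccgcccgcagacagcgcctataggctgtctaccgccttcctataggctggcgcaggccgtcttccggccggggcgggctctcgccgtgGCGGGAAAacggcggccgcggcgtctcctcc
POLA1 (chrX:24693768-24693917, plus strand): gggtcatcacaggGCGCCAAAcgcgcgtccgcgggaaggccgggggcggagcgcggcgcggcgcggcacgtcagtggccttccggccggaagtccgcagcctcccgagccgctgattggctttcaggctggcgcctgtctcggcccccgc
POLA2 (chr11:65261812-65261961, plus strand): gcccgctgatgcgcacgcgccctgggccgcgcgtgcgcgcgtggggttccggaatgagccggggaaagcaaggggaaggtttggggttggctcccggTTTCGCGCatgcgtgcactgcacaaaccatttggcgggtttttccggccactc
DUT (chr15:48332047-48332196, plus strand): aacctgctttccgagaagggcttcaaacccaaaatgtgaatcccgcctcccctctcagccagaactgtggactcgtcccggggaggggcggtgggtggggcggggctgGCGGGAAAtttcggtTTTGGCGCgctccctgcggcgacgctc
PCNA (chr20:5126623-5126772, minus strand): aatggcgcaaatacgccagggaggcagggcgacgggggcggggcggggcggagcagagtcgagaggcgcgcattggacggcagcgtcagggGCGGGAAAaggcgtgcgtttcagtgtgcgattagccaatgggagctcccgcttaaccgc
RPA1 (chr17:1829855-1830004, plus strand): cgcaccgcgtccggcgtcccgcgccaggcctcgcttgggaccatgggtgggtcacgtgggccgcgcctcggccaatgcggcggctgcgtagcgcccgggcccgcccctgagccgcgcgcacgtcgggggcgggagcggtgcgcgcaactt
RFC1 (chr4:39366363-39366512, minus strand): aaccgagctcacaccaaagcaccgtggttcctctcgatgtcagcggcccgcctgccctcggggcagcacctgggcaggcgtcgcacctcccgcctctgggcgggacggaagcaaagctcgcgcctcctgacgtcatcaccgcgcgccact
SLBP (chr4:1712320-1712469, minus strand): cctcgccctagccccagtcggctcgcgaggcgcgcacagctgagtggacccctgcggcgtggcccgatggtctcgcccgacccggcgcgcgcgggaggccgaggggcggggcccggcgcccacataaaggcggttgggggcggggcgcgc
The first base of the match lies 31 bases before the start in GINS2, 137 in POLA1, 53 in POLA2 and 59 in PCNA, and DUT has 1 match at 42 and another at 27 bases. A match of letters is a description and not a measured binding site. The 18 genes with a match anywhere in the 300 bases had a median log2 fold change of -0.76 in HT55 and -1.70 in SW948. The 22 genes without one had medians of -0.68 and -0.97. A fall in both lines was seen for 16 of the 18 and for 17 of the 22. By line, 26.5% of all genes tested fell in HT55 and 41.3% in SW948, and the share falling in both was not computed. Deep falls occurred in both sets, since CDC45 and BRCA1, at -3.62 and -2.95 in SW948, have none of these letters in their windows.

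Itraconazole lowered most of the replication genes in both lines, and by more in SW948. In HT55, 40 of the 46 fell, none rose and 6 did not pass the test, where 26.5% of the 12133 genes tested fell and 27.5% rose. The median log2 fold change of the 46 was -0.70, against -0.02 for all genes tested, and the values ran from -1.17 for POLE2 to 0.13 for RPA1. A fall of at least 1 on the log2 scale was seen for 8 of the 46, against 4.33% of all genes. In SW948, 42 fell, 3 rose and 1 did not pass, where 41.3% of the 12505 genes tested fell and 38.9% rose. The median there was -1.39, against -0.02 for all genes, with 30 of the 46 falling by at least 1 on the log2 scale (18.7% of all genes) and 12 by at least 2 (6.5% of all genes). The 4 deepest falls, FAM111B, CDC45, GINS2 and CLSPN, each exceeded 3 on this scale. All 4 treated libraries lay below all 4 DMSO libraries for 36 genes in HT55, against 24.4% of all genes, and for 42 in SW948, against 37.4%. Of the 46 genes, 38 fell in both lines. The share of all genes that fell in both lines was not computed.

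**Figure D1:**
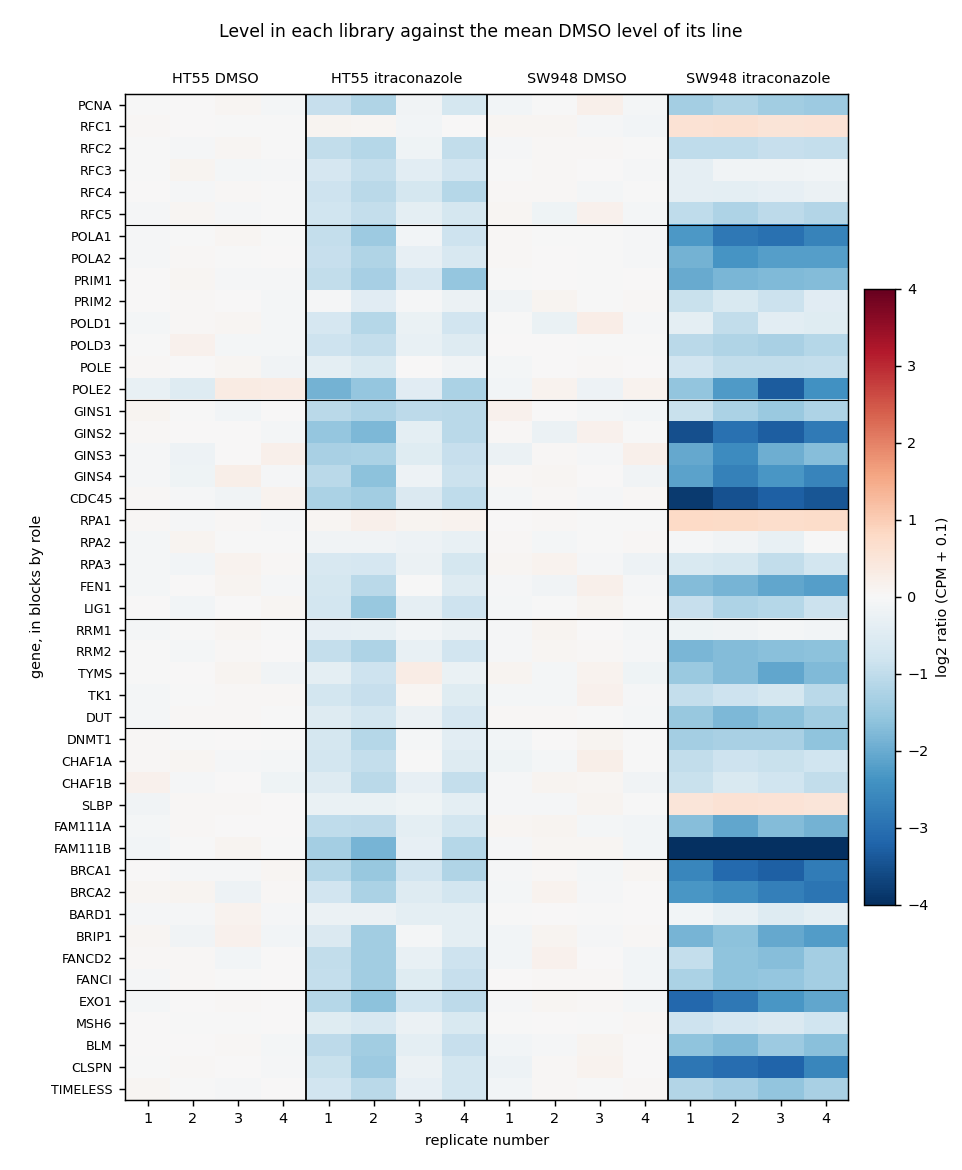
Heat map of the log2 ratio of each gene's level to the mean DMSO level of its line (CPM + 0.1), with the 46 genes in rows by role and the 16 libraries in columns. Most rows are blue in the treated libraries of both lines and deeper in SW948, RPA1, RFC1 and SLBP are red in SW948, and replicate 3 of treated HT55 is the palest of its group.

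The treated HT55 libraries differed among themselves in depth of response. The median log2 ratio of the 46 genes to the HT55 DMSO mean was -0.79, -1.13, -0.29 and -0.74 in replicates 1 to 4, and replicate 3 had the highest of the 4 treated levels for 41 genes. The 4 treated SW948 libraries were closer to each other, at -1.21, -1.31, -1.48 and -1.36. Without HT55 replicate 3, 43 genes fell and 1, RPA1, rose, where 31.9% of all genes fell and 32.6% rose, and the median moved from -0.70 to -0.87. The genes falling by at least 1 on the log2 scale then went from 8 to 16. The share of all genes falling that far was not computed without replicate 3. RFC1 and PRIM2 were the genes that still did not pass, at 0.08 and -0.24. Replicate 2 was the opposite extreme, with the lowest of the 4 treated levels for 35 genes. How often replicates 3 and 2 were the extremes over all genes was not computed. Leaving out replicate 2 instead, 39 genes fell and none rose, where 3025 of the 12290 genes tested fell and 3227 rose. The median of the 46 was then -0.60. When libraries were scaled by their totals alone, the median of all genes shifted to -0.18 in HT55 and -0.35 in SW948. The median of the 46 genes relative to that shift was -0.68 and -1.37.

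The sliding clamp and its loader were lowered unevenly. PCNA, the ring that holds polymerases on DNA, was at 138, 143, 149 and 135 CPM in HT55 with DMSO and 73.8, 60.8, 129 and 86.9 CPM with itraconazole. In SW948 it was at 70.7, 74.1, 86.3 and 70.8 CPM with DMSO and 29.5, 32.6, 28.9 and 27.4 CPM with the drug. The groups did not overlap in either line, although HT55 replicate 3 came close to its controls. The log2 fold change of PCNA was -0.69 ± 0.18 (adjusted p = 0.00957) in HT55, or -0.93 without replicate 3, and -1.38 ± 0.08 (adjusted p = 3.52e-09) in SW948. RFC2 and RFC5, small subunits of the loader, fell by 0.76 and 0.70 on the log2 scale in HT55 and by 1.02 and 1.15 in SW948. RFC3 and RFC4, from the same ring of small subunits, were lowered more in HT55, at -0.70 and -0.93, than in SW948, at -0.22 and -0.36. RFC4 was at 37.9, 36.2, 38.1 and 36.9 CPM with DMSO and 21.0, 17.7, 22.7 and 16.9 CPM with itraconazole in HT55. Its SW948 levels were 43.7, 43.6, 40.4 and 41.4 CPM with DMSO and 33.1, 32.5, 33.9 and 35.6 CPM with the drug, a smaller step with no overlap. RFC1, the large subunit of the replicative loader, was the exception of the group. In SW948 it stood at 66.8, 67.5, 61.2 and 59.2 CPM with DMSO and rose to 95.3, 96.4, 90.5 and 93.5 CPM, a log2 fold change of 0.53 ± 0.07 (adjusted p = 4.18e-06). In HT55 its level was 46.4 to 53.9 CPM with the drug and 48.6 to 50.7 CPM with DMSO, and the groups overlapped. Without treated replicate 3 the HT55 changes were -1.02 for RFC2, -0.79 for RFC3, -1.0 for RFC4 and -0.81 for RFC5, again falls.

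The primase and polymerase genes fell together in SW948, where all 8 passed with a median of -1.55. In HT55, 6 of the 8 fell, with a median of -0.71. POLA1, the catalytic subunit of DNA polymerase alpha and one of the E2F promoters shown above, was at 33.0, 31.4, 31.6 and 30.6 CPM in SW948 with DMSO and 6.30, 4.25, 3.94 and 4.85 CPM with itraconazole. This is a log2 fold change of -2.72 ± 0.13 (adjusted p = 2.82e-10), 6.59 times lower. In HT55 it was at 56.4, 58.1, 62.4 and 58.3 CPM with DMSO and at 30.0, 21.5, 54.0 and 33.0 CPM with the drug, where replicate 3 was almost at the level of the controls. POLA2, its accessory subunit, and PRIM1, the catalytic primase, fell in both lines, at -2.19 and -1.89 in SW948 and -0.74 and -1.10 in HT55. PRIM2, the large primase subunit, moved less, at -0.72 ± 0.11 in SW948 and -0.20 ± 0.10 (adjusted p = 0.125) in HT55, where it passed on plain library totals (adjusted p = 0.0252). The polymerase delta genes POLD1 and POLD3 fell by 0.67 and 0.63 in HT55 and by 0.59 and 1.21 in SW948. POLE, the catalytic subunit of polymerase epsilon, fell by 0.95 in SW948 and was at -0.26 ± 0.12 (adjusted p = 0.0922) in HT55. The HT55 value of POLE did pass without replicate 3, at -0.36 (adjusted p = 0.0046), in 1 fit on all 16 libraries (adjusted p = 0.0396) and on plain library totals (adjusted p = 0.0283). POLE2, its second subunit, had the lowest HT55 value of all 46 genes at -1.17 ± 0.32 and was at -2.40 ± 0.29 in SW948. It is also the weakest expressed in counts, with 11, 5, 2 and 5 counts in the 4 treated SW948 libraries, so its depth in that line is known only roughly. Leaving out the same replicate 3 gave -1.06 for POLA1, -0.90 for POLA2, -1.26 for PRIM1, -0.84 for POLD1, -0.76 for POLD3 and -1.56 for POLE2 in HT55, which all still passed.

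The CMG partners were among the most affected, with falls for all 5 genes in both lines and medians of -1.03 in HT55 and -2.50 in SW948. CDC45, which the fork needs to start and keep unwinding, was at 14.8, 16.1, 15 and 16.1 CPM in SW948 with DMSO and at 1.0, 1.29, 1.53 and 1.35 CPM with itraconazole. The 4 treated libraries held only 10 to 12 counts each, and none came near a control. The log2 fold change was -3.62 ± 0.16 (adjusted p = 1.68e-10), 12.3 times lower. In HT55 CDC45 went from 13.4, 12.4, 11.6 and 14.1 CPM to 5.34, 4.83, 8.56 and 6.33 CPM, a change of -1.03 ± 0.18 (adjusted p = 0.000792) and of -1.22 without replicate 3. GINS2, a subunit of the GINS complex, was at 16.3, 13.5, 17.9 and 15.6 CPM in SW948 with DMSO and 1.30, 1.93, 1.53 and 2.15 CPM with the drug. In HT55 the GINS2 levels were 77.7, 77.0, 76.8 and 71.8 CPM with DMSO and 26.1, 21.6, 58.4 and 35.5 CPM with itraconazole. The fold changes were -3.23 ± 0.17 in SW948 and -1.09 ± 0.24 in HT55. GINS3 and GINS4 were at -2.10 and -2.50 in SW948 and at -0.95 and -0.84 in HT55, falls in both. GINS1, of the same complex, was at -1.12 ± 0.08 in HT55 and -1.22 ± 0.11 in SW948. Its treated HT55 levels of 20.6, 18.4, 21.1 and 20.7 CPM did not set replicate 3 apart. When that library was left out, GINS1, GINS2, GINS3 and GINS4 were at -1.13, -1.45, -1.15 and -1.17.

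Among the genes that bind single strands and join the lagging strand, RPA1 stood against the rest. RPA1, the large subunit of RPA, was at 106, 109, 104 and 104 CPM in SW948 with DMSO and at 182, 178, 174 and 174 CPM with itraconazole. The rise was 0.71 ± 0.06 on the log2 scale (adjusted p = 3.90e-08). In HT55 it went from 199, 189, 199.8 and 189.7 CPM to 205, 223, 209 and 216 CPM. All 4 treated libraries were above the controls, but the log2 fold change was small, at 0.13 ± 0.06 (adjusted p = 0.0722), and it passed without replicate 3 at 0.15 (adjusted p = 0.0279). On plain library totals this HT55 value turned negative. RPA2, the middle subunit, was at -0.20 ± 0.07 (adjusted p = 0.0351) in HT55 and at -0.15 ± 0.08 (adjusted p = 0.108) in SW948, where it was the only gene of the 46 that did not pass. RPA3, the small subunit, fell by 0.56 and 0.78. FEN1, the nuclease that trims Okazaki fragments, was at 34.7, 32.3, 40.6 and 34.7 CPM in SW948 with DMSO and at 10.6, 9.79, 8.39 and 7.68 CPM with the drug, a change of -1.99 ± 0.12. In HT55 the FEN1 groups overlapped, because replicate 3 was at 47.8 CPM and the lowest control at 45.5 CPM, and the change was -0.52 ± 0.18. LIG1, the ligase that seals the fragments, fell by 0.80 and 1.07 on the log2 scale. HT55 values without replicate 3 were -0.19 for RPA2, -0.67 for RPA3, -0.74 for FEN1 and -0.98 for LIG1, and all 4 passed.

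The genes of nucleotide supply fell in SW948 for all 5, and in HT55 for 4. RRM2, the small subunit of ribonucleotide reductase, whose RNA is made mainly in S phase, was at 418, 400.1, 431 and 428 CPM in HT55 with DMSO and at 217, 179.9, 341 and 247 CPM with itraconazole. In SW948 its levels were 129, 141, 138 and 129 CPM with DMSO and 37.5, 40.1, 41.7 and 43.1 CPM with the drug. The groups were separate in both lines, with changes of -0.77 ± 0.16 and -1.76 ± 0.07. RRM1, the large subunit of the same enzyme, changed much less. It went from 131, 137, 147 and 138 CPM to 110.3, 113, 129 and 118 CPM in HT55, and from 139, 154, 145 and 137 CPM to 127, 129, 137 and 133 CPM in SW948. The treated libraries were still below the controls in each line, at -0.24 ± 0.07 (adjusted p = 0.0128) and -0.16 ± 0.06 (adjusted p = 0.0254). TYMS, thymidylate synthase, the target of 5-fluorouracil, was at 25.1, 22.1, 25.7 and 20.9 CPM in SW948 with DMSO and 8.30, 6.96, 5.47 and 6.77 CPM with itraconazole. In HT55 the TYMS levels were 42.8, 43.8, 47.2 and 39.7 CPM with DMSO and 33.0, 24.6, 52.9 and 36.0 CPM with the drug, so replicate 3 was above every control. Its change was -1.79 ± 0.13 in SW948 and -0.24 ± 0.19 (adjusted p = 0.295) in HT55, or -0.47 without replicate 3, which then passed. TK1, the thymidine kinase of dividing cells, and DUT, which keeps uracil out of DNA, fell by 0.46 and 0.53 on the log2 scale in HT55 and by 0.92 and 1.61 in SW948. Without that replicate RRM2 was at -0.96, RRM1 at -0.27, TK1 at -0.69 and DUT at -0.64 in HT55, falls in each case.

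**Figure D2:**
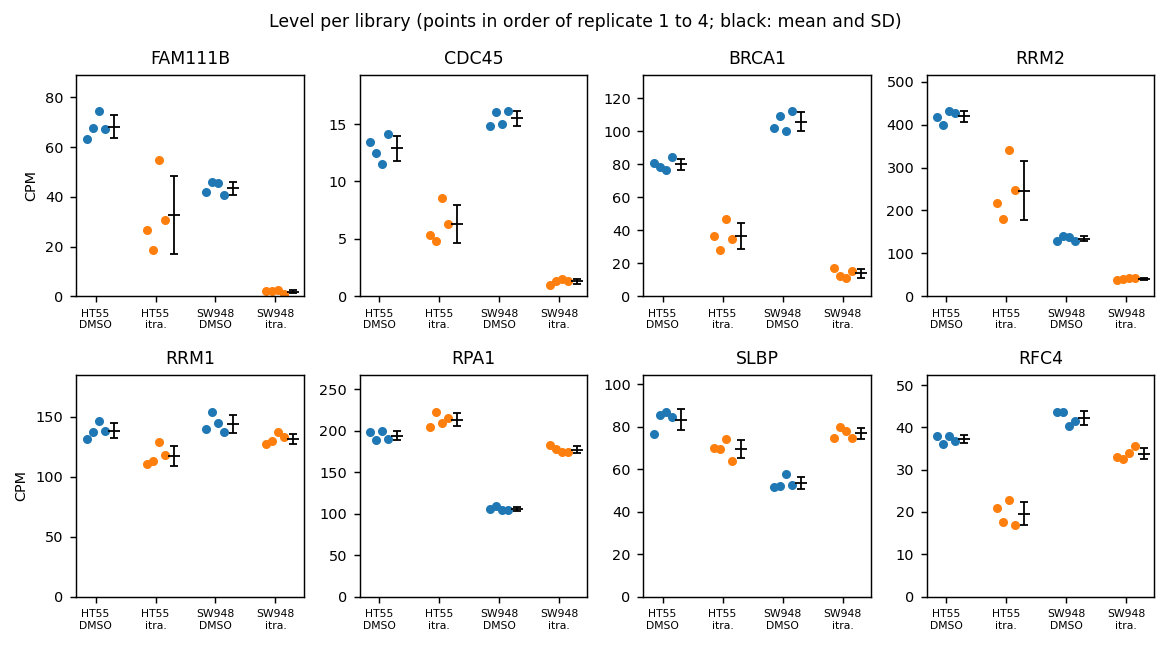
Level of 8 genes in each library (CPM, axes from 0), with DMSO in blue, itraconazole in orange and the mean and SD of each group of 4 in black. FAM111B, CDC45, BRCA1 and RRM2 drop in both lines, RRM1 barely, RPA1 and SLBP are higher with the drug in SW948, and RFC4 drops further in HT55.

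The genes that copy chromatin and its DNA methylation held both the deepest fall and a gene that changed in opposite ways. FAM111B, a serine protease related to FAM111A, was at 41.9, 46, 45.5 and 40.6 CPM in SW948 with DMSO and at 2.0, 1.93, 2.67 and 1.02 CPM with itraconazole. The treated libraries held 20, 15, 21 and 9 counts, against 487 to 528 in the controls. The log2 fold change was -4.55 ± 0.16 (adjusted p = 3.39e-11), 23.4 times lower. In HT55 FAM111B went from 63.2, 67.9, 74.3 and 67.3 CPM to 26.6, 18.7, 54.8 and 30.7 CPM, a change of -1.05 ± 0.25 (adjusted p = 0.00525) and of -1.42 without replicate 3. FAM111A, a PCNA-interacting protease that helps forks past protein obstacles, lies next to it on chromosome 11, at 58910221 to 58922512 against 58874658 to 58894885 for FAM111B (GRCh37). It fell in both lines, at -0.77 ± 0.13 in HT55 and -1.88 ± 0.10 in SW948. SLBP binds the stem-loop of replication-dependent histone mRNAs. It was at 76.4, 85.5, 87.0 and 84.6 CPM in HT55 with DMSO and 69.8, 69.6, 74.2 and 63.8 CPM with the drug, a fall of 0.27 (SE 0.07, adjusted p = 0.00855). In SW948 it was at 51.5, 52.3, 57.8 and 52.5 CPM with DMSO and 74.6, 80.0, 77.9 and 74.7 CPM with the drug, a rise of 0.49 ± 0.06 (adjusted p = 7.60e-06). It is the only one of the 46 genes that passed in opposite directions in the 2 lines. DNMT1, the maintenance methyltransferase, fell by 0.53 and 1.41, and CHAF1A and CHAF1B, subunits of the histone chaperone CAF-1, by 0.51 and 0.69 in HT55 and by 0.90 and 0.84 in SW948. In HT55 without replicate 3, FAM111A was at -0.92, SLBP at -0.29, DNMT1 at -0.71, CHAF1A at -0.73 and CHAF1B at -0.83, and these falls passed.

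The recombination and Fanconi anaemia genes fell in SW948 for all 6, and in HT55 for 5. BRCA1, which directs repair of broken forks by recombination, was at 102, 109, 100.3 and 112 CPM in SW948 with DMSO and at 17.4, 12.1, 10.9 and 15 CPM with itraconazole. In HT55 BRCA1 went from 81.0, 78.1, 76.6 and 84.2 CPM to 36.4, 27.8, 47.0 and 34.6 CPM. The groups were far apart in both lines, at -2.95 ± 0.11 (adjusted p = 6.97e-11) and -1.13 ± 0.13 (adjusted p = 7.35e-05). BARD1, its partner in the heterodimer, changed little, at -0.35 ± 0.10 (adjusted p = 0.00376) in SW948 and -0.32 ± 0.08 (adjusted p = 0.0077) in HT55. Its SW948 levels were 24.6, 25, 24.4 and 25.1 CPM with DMSO and 22.9, 20.2, 17.2 and 18.7 CPM with the drug. BRCA2, which works in the strand exchange step of recombination, fell by 0.79 on the log2 scale in HT55 and by 2.64 in SW948. BRIP1, a helicase that binds BRCA1, fell by 1.99 in SW948 and was at -0.53 ± 0.22 (adjusted p = 0.058) in HT55, where it passed without replicate 3 at -0.73 (adjusted p = 0.00248). FANCD2 and FANCI, which form the clamp of the Fanconi pathway, fell by 0.81 and 0.90 in HT55 and 1.40 and 1.46 in SW948. The HT55 falls without replicate 3 were -1.27 for BRCA1, -0.89 for BRCA2, -0.28 for BARD1, -1.04 for FANCD2 and -1.07 for FANCI.

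The remaining 5 genes, of excision, mismatch repair and fork protection, fell in both lines. CLSPN, the checkpoint mediator claspin, was at 8.90, 10.5, 11.3 and 10.2 CPM in SW948 with DMSO and 1.30, 1.16, 1.02 and 1.58 CPM with itraconazole, from 13, 9, 8 and 14 counts. In HT55 it was at 27.3, 28.3, 27.6 and 26.2 CPM with DMSO and 14.6, 9.90, 23.1 and 16.3 CPM with the drug. The changes were -3.02 ± 0.18 in SW948 and -0.77 ± 0.20 in HT55, with no overlap in either. EXO1, an exonuclease of mismatch repair and end resection, was at -2.62 in SW948 and -1.14 in HT55, and fell in both. BLM, the Bloom helicase, and TIMELESS, which travels with the fork, fell by 1.67 and 1.36 in SW948 and by 0.89 and 0.70 in HT55. MSH6, a subunit of the mismatch recognition dimer, had the smallest falls of these, of 0.49 in HT55 and 0.76 in SW948. CLSPN, EXO1, BLM, TIMELESS and MSH6 were at -1.0, -1.26, -1.11, -0.84 and -0.56 in HT55 without replicate 3, and each fell.

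**Figure D3:**
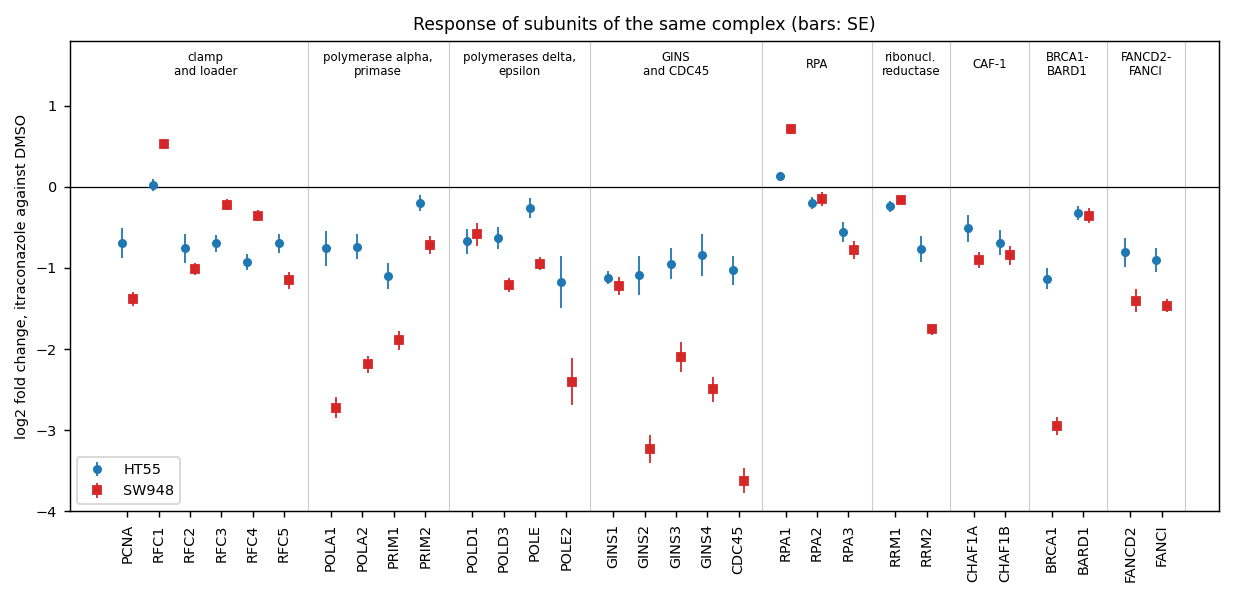
Log2 fold change with its SE (bars) for subunits of the same complex, HT55 as blue circles and SW948 as red squares. RFC1, RPA1, RRM1, BARD1 and GINS1 stand above a partner of the same complex in SW948, at 0.53, 0.71, -0.16, -0.35 and -1.22.

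The difference of the 2 responses was tested itself, as the interaction of line and treatment on all 16 libraries. For 28 of the 46 genes the response was more negative in SW948, for 5 it was more positive, and 13 did not pass. Of the 13249 genes tested, 29.1% were more negative and 24.8% more positive. The largest differences on the log2 scale were -3.47 ± 0.38 for FAM111B (adjusted p = 4.80e-07), -2.56 ± 0.25 for CDC45 (adjusted p = 1.51e-07), -2.23 ± 0.31 for CLSPN and -2.11 ± 0.39 for GINS2. The 5 on the positive side were SLBP at 0.79 ± 0.09 (adjusted p = 1.51e-06), RPA1 at 0.61, RFC4 at 0.60, RFC1 at 0.54 and RFC3 at 0.50. Within complexes the subunits differed in this respect. GINS1 had a difference of -0.08 ± 0.15 (adjusted p = 0.69), while GINS2, GINS3 and GINS4 ran from -2.11 to -1.12. BARD1 was at -0.00206 ± 0.12 (adjusted p = 0.997), beside -1.79 ± 0.18 for BRCA1, and RRM1 at 0.11 ± 0.09 (adjusted p = 0.335), beside -0.96 ± 0.18 for RRM2. Without HT55 replicate 3, 26 genes were more negative and 5 more positive, where 3908 and 3309 of the 13429 genes tested were. The median difference of the 46 then moved from -0.65 to -0.47. Leaving out treated HT55 replicate 2 instead gave 33 more negative and 5 more positive, where 4007 and 3444 of 13459 were, and a median of -0.75. RFC3 passed no longer on plain library totals, at 0.30 (adjusted p = 0.0895).

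**Figure D4:**
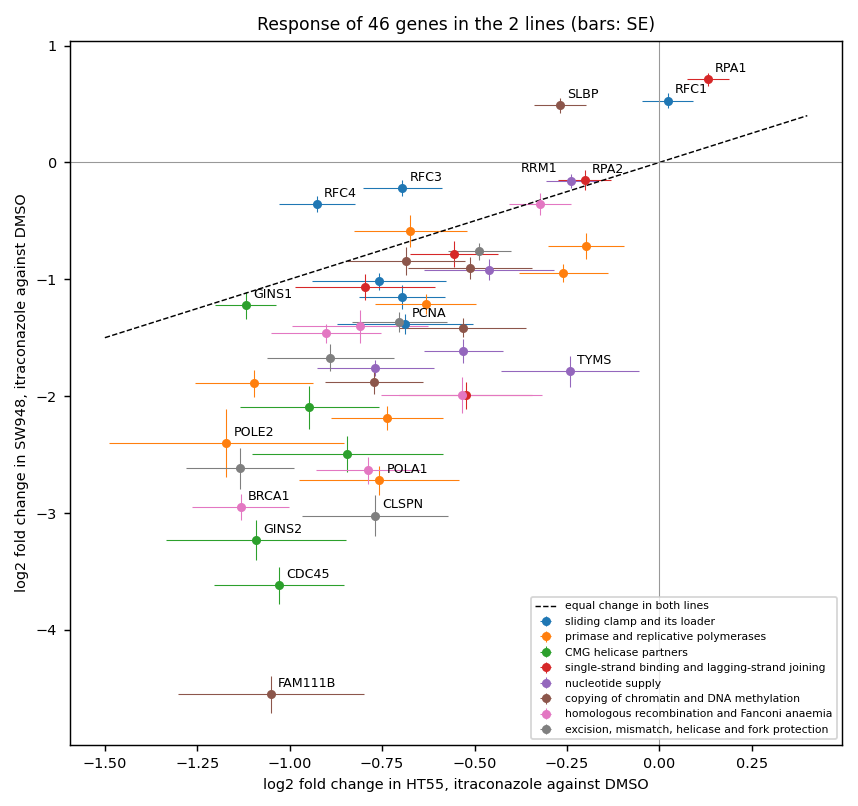
Log2 fold change with itraconazole in HT55 (x axis) and SW948 (y axis) for the 46 genes, coloured by role, with SE bars and a dashed line of equal change. Most genes lie below the line, FAM111B lowest at -4.55, and SLBP, RPA1 and RFC1 lie above 0 in SW948.

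The lines already differed before the drug. With DMSO, 36 of the 46 genes were lower in SW948 than in HT55, 6 were higher and 4 did not pass. Across all 12820 genes tested, 41.6% were lower and 42.6% higher. The median difference on the log2 scale was -0.71, against 0.01 for all genes. It was lowest for GINS2 at -2.25 ± 0.07, DUT at -1.75 ± 0.05, RRM2 at -1.64 ± 0.04, FANCI at -1.47 and CLSPN at -1.42. GINS4 at 0.89, BRCA1 at 0.41, RFC1 at 0.36, CDC45 at 0.27, RFC4 at 0.19 and BRCA2 at 0.15 were higher in SW948. POLA2, PRIM2, GINS1 and RRM1 did not pass. On plain totals, the median of all genes shifted to 0.20 and that of the 46 relative to it was -0.73. The DMSO libraries of this comparison are the controls of the responses above, so the 2 sets of values share samples. CDC45 and BRCA1, higher in SW948 with DMSO, and GINS2 and CLSPN, lower there, all ended below HT55 after treatment, CDC45 at 1.0 to 1.53 CPM against 4.83 to 8.56 and BRCA1 at 10.9 to 17.4 against 27.8 to 47.0. Of the others higher with DMSO, BRCA2 also ended below, at 6.89 to 10.5 CPM against 19.9 to 33.7. RFC1 stayed above HT55, at 90.5 to 96.4 CPM against 46.4 to 53.9, and so did RFC4, at 32.5 to 35.6 against 16.9 to 22.7. GINS4 overlapped, at 2.06 to 3.10 CPM against 2.36 to 6.56. The treated lines were not tested against each other.

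Other genes of the same pathways were read from lists that do not share a gene with the 46. Their counts stand against 26.5% of all genes that fell and 27.5% that rose in HT55, and 41.3% and 38.9% in SW948, and no list was tested against the rest. Of 21 other fork proteins, 14 fell and 1 rose in HT55, and 13 fell and 3 rose in SW948. TOP1, topoisomerase I, was highest in HT55 at 0.17 and PCLAF, a PCNA-binding factor, lowest at -1.08. CHTF8, of an alternative clamp loader, fell by 1.69 in SW948, while DONSON, which helps assemble the helicase, rose by 1.47 ± 0.15 there (adjusted p = 6.06e-07), with levels between 11.1 and 12.2 CPM with DMSO and between 23.6 and 40.3 CPM with itraconazole. Of 17 other genes of nucleotide supply, 8 fell and 1 rose in HT55 and 9 fell and 2 rose in SW948. RRM2B, the p53-inducible small subunit of ribonucleotide reductase, was highest in both, at 0.45 ± 0.16 and 0.54 ± 0.10. RRM2B thus rose where RRM2 fell. Without treated HT55 replicate 3, where 31.9% of all genes fell and 32.6% rose, 17 of the 21 fork proteins and 10 of the 17 nucleotide genes fell in HT55 and 1 of each list rose.

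Of 25 recombination and Fanconi anaemia genes outside the 46, 20 fell and none rose in HT55, and 20 fell and 2 rose in SW948. XRCC2, a recombination gene, was at 14.4 to 14.8 CPM in SW948 with DMSO and 0.636 to 1.24 CPM with itraconazole, a change of -3.95 ± 0.18. MRE11, a nuclease that opens broken ends, was highest in HT55 at -0.07, while FANCE, of the Fanconi core complex, rose by 0.79 in SW948. All 6 other mismatch repair genes fell in both lines, and MSH3, which recognises mismatched loops, fell least, at -0.33 in HT55 and -0.21 in SW948. Of 12 checkpoint genes, 5 fell and 1 rose in HT55, where 26.5% of all genes fell, and 6 fell and 2 rose in SW948, where 41.3% fell. WEE1, the kinase that holds back mitosis, was highest in both lines at 0.25 and 0.52, while ATRIP, the binding partner of ATR, was lowest in HT55 at -0.86 and ETAA1, an activator of ATR, lowest in SW948 at -1.62. With HT55 replicate 3 left out, 20 of the 25 recombination genes, all 6 mismatch repair genes and 5 of the 12 checkpoint genes fell in that line, and 2 checkpoint genes rose.

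Of 10 other chromatin and methylation genes, 7 fell in HT55 and none rose, and 6 fell and 2 rose in SW948. HELLS, a remodeller that aids DNA methylation, was lowest in SW948 at -3.30 and ASF1B, a histone chaperone, highest at 0.95. DNMT3B, a de novo methyltransferase, was lowest in HT55 at -1.63 and its relative DNMT3A highest at 0.30. Of 21 genes tested of end joining and excision repair outside replication, 8 fell and 3 rose in HT55, where 26.5% of all genes fell and 27.5% rose, and 10 fell and 6 rose in SW948, where 41.3% fell and 38.9% rose. Their medians were -0.22 and -0.21, and XPA was lowest in both lines at -1.22 and -1.05, while DDB1 was highest in HT55 at 0.45 and XRCC1 in SW948 at 0.67. Of 7 translesion genes tested, 3 fell in HT55 and none rose, and 1 fell and 2 rose in SW948. POLI was lowest in HT55 at -0.47 and POLH highest at 0.05, and in SW948 the lowest was POLQ at -1.19 and the highest RAD18 at 0.72. Leaving out HT55 replicate 3, falls numbered 7 of 10 for chromatin and methylation, 8 of 21 for end joining and excision repair, where 3 rose, and 4 of 7 for translesion genes.

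Exons of 21 of the 46 genes overlap another gene, and the sources used here do not say whether strand was used in counting. The longest overlaps are with ENOSF1 over 39.9% of the exon length of TYMS and with FBXO11 over 22.7% of that of MSH6, both on the opposite strand, so reads there may be left out or belong to either gene. Some overlaps are on the same strand, where strand cannot separate the genes. Among them is that of PRIM1 with NACA, over 4.20% of the exon length of PRIM1. NACA had 123090 counts over the 16 libraries, against 2756 for PRIM1.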

How the data were processed

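The 16 libraries were TruSeq, single-end reads of 50 bp. Per the labels, the reads were aligned to hg19, and the submitters' processing notes name TopHat, HTSeq and DESeq without versions. The authors deposited raw read counts per Ensembl gene for each library, not normalised. The annotation release and the use of strand are not given in the sources used here. Reads with more than 1 alignment, between 22.0% and 27.9% of the total in a library, were in no gene. The 5 totals outside genes were left out. Symbols and GRCh37 coordinates came from a gene name table and from GENCODE v44 lifted to that build.

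The counts were tested with edgeR 4.0.16 in R 4.3.3 (glmQLFit, glmQLFTest, TMM, filterByExpr), with the 8 libraries of each line, the 8 DMSO libraries for the difference between lines, and all 16 for the interaction, and no covariate. The Benjamini-Hochberg threshold was 0.05, and the SE was the log2 fold change divided by the root of F. The fit was tested on simulated data. Named genes were all members kept and, from each other list, the highest and lowest in each line, of which some are not reported here. The 46 genes and the other lists were chosen with earlier results of these data known. Alternatives were DESeq2 1.42.0, other scalings, filters and thresholds, a block, 1 fit on 16 libraries and leaving out each library. At 8269406 to 11110814 counts per library, genes of a few counts have uncertain fold changes, and without molecular identifiers counts are not molecules. No pair of replicates differed as little as sampling noise would give (lowest chi-square per degree of freedom 1.43).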

Additional observations from a re-analysis of the deposited data

Results flagged for a closer look

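The response to itraconazole differed between SW948 and HT55, by the interaction test of edgeR, for 33 of the 46 genes. Of all 13249 genes tested by it, 29.1% were more negative in SW948 and 24.8% more positive. The difference on the log2 scale, SW948 minus HT55, was negative for PCNA (-0.67), RFC5 (-0.43), POLA1 (-1.93), POLA2 (-1.42), PRIM1 (-0.77), PRIM2 (-0.49), POLD3 (-0.55), POLE (-0.66) and POLE2 (-1.21). It was also negative for GINS2 (-2.11), GINS3 (-1.12), GINS4 (-1.63), CDC45 (-2.56), FEN1 (-1.44), RRM2 (-0.96), TYMS (-1.52), DUT (-1.05), DNMT1 (-0.85), FAM111A (-1.08) and FAM111B (-3.47). Among repair and fork protection genes the negative values were BRCA1 (-1.79), BRCA2 (-1.82), BRIP1 (-1.43), FANCI (-0.53), EXO1 (-1.45), BLM (-0.75), CLSPN (-2.23) and TIMELESS (-0.63). The positive values were RFC1 (0.54), RFC3 (0.50), RFC4 (0.60), RPA1 (0.61) and SLBP (0.79). Without HT55 replicate 3 with itraconazole, RFC5 was at -0.31 (adjusted p = 0.0618) and POLE2 at -0.81 (adjusted p = 0.141).

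A single library lay far from the other 3 of its group, by Dixon's ratio of its gap to the range of the group, in 10 of 184 groups, and chance gives about 1 in 20. In HT55 with itraconazole, replicate 3 was high for RFC2 (0.872) and RPA3 (0.921), and replicate 2 was low for GINS1 (0.8294). In HT55 with DMSO, replicate 4 was low for GINS2 (0.844) and BLM (0.902) and replicate 3 was high for BARD1 (0.922). In SW948 with DMSO, replicate 3 was high for TK1 (0.853) and SLBP (0.846) and replicate 1 was low for POLE (0.864). In SW948 with itraconazole, replicate 2 was low for POLD1 (0.862).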

How the results depend on the processing

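Of 3582 recomputed results, 3353 kept their direction and side of the threshold, 170 lost the call, 35 gained it and 24 changed sign. A minimum log2 fold change of 1 left 8 genes that fell and 0 that rose in HT55, 0 that rose in SW948, 17 more negative and 0 more positive in the interaction, and 12 lower and 0 higher in SW948 with DMSO. Of all genes, 525 of 12133 fell and 644 rose in HT55, and 1657 of 12505 rose in SW948. In the interaction 1777 of 13249 were more negative and 983 more positive. With DMSO 1951 of 12820 were lower in SW948 and 2202 higher. RPA1 was the 1 gene that rose in HT55 with the DESeq2 Wald test, 1 fit on all 16 libraries or without treated HT55 replicate 3. Leaving out each library in turn gave 34 to 43 falls and 0 to 1 rises in HT55, 41 to 42 falls in SW948, 26 to 33 more negative interactions, and 5 to 6 genes higher with DMSO. Of all genes, 2577 to 3912 of 12256 to 12290 then fell and 2983 to 3998 rose in HT55. In SW948, 4998 to 5288 of 12622 to 12746 fell. Of 13417 to 13470 genes, 3661 to 4031 were more negative in the interaction. With DMSO, 5376 to 5506 of 12935 to 12997 were higher in SW948. With the replicate block, 40 genes fell in HT55 and 42 in SW948, 28 and 5 passed in the interaction and 36 and 6 with DMSO, the counts without it. In HT55 the genes differed, as RPA2 lost its call (-0.20, adjusted p = 0.0603) and BRIP1 gained one (-0.59, adjusted p = 0.0148), while in the other 3 comparisons no call changed. Of all genes, with the block, 3117 of 12133 fell in HT55 and 5143 of 12505 in SW948. In the interaction with the block, 3842 of 13249 were more negative and 3312 more positive. With DMSO and the block, 5351 of 12820 were lower in SW948 and 5476 higher. Same-numbered libraries had correlations of deviations from -0.0356 to 0.116, and differently numbered ones from -0.120 to 0.0501. Replicate 3 with replicate 3 was highest in HT55 (0.116), in SW948 (0.104) and between the DMSO groups (0.0738). With 4 libraries per group, these values cannot decide whether the numbers pair the samples.

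The sign changes were in values that had not passed the test, except the DMSO difference of RFC2, which had passed at -0.16. On plain library totals RFC1 was at -0.145 and RPA1 at -0.0354 in HT55, the interaction of POLD1 at -0.0856, RPA2 at -0.111 and RRM1 at -0.0918, and the DMSO difference of RFC2 at 0.0332 and PRIM2 at 0.130. The interaction of BARD1 was at 0.0231 with DESeq2 size factors, 0.0262 with the DESeq2 Wald test and 0.00362 with at least 10 counts in every library. Leaving out each library, RFC1 in HT55 ran from -0.00559 to 0.0758, the DMSO difference of POLA2 from -0.000298 to 0.0340, and the interaction of RFC2 from -0.340 to 0.0355, POLD1 from -0.0161 to 0.285, GINS1 from -0.215 to 0.00513, CHAF1B from -0.243 to 0.0132 and BARD1 from -0.0931 to 0.0553. The cause was not tested. At 10 counts in every library, CLSPN, POLE2 and FAM111B could not be tested in SW948.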
